A study of Gallus gallus with 6 samples.

Results

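LFABP, LPL and MOGAT1 are genes by which liver cells take in and store fat, and they were picked by symbol from the deposited table of differentially expressed mRNAs of rooster livers. All 3 were found, each as 1 transcript, among the 1480 mRNAs of that table. Mature livers came from Arbor Acres breeder roosters aged 40 weeks, in 3 libraries of 1 liver each. They were set against immature livers of Arbor Acres breeder roosters aged 1 day, in 3 libraries that each pooled RNA of 4 livers. All birds of both groups were male, had been without feed for 12 h and gave the left side of the liver, and every library was made strand-specifically after removal of ribosomal RNA. Because only the chicks were pooled, an effect of pooling and an effect of age cannot be told apart.

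Levels are FPKM, the number of sequenced fragments scaled by transcript length and library depth, and each listed transcript has 1 such value per group. No value per library, replicate error or read count per transcript is given with these levels. The study does give the mapped reads of each library, more in every mature library than in any immature one. They were not used here. They belong to single transcripts, and other transcripts of the same genes were not analysed here. Such values allow no test, and every comparison here is a description. The 3 genes were also chosen with these same FPKM values known. The table is restricted to mRNAs that the authors had already called, so genes outside it have no value here. Each difference is the log2(FPKM + 1) of mature livers less that of immature livers, and adding 1 FPKM makes the changes of low genes look smaller than they are. A gene was counted as lower or higher when its difference was under -1 or over 1.

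Fat reaches liver cells as free fatty acids and inside lipoproteins. A chick lives at hatching largely on the lipid of its yolk, which enters the blood as lipoproteins, whereas an older bird on a starch-rich diet makes much of its fat in the liver. Lipoprotein lipase, the product of LPL, is a secreted enzyme that splits the triglyceride of circulating lipoproteins at the vessel wall. In adult mammals it is made mainly in fat and muscle, and the livers of newborn rodents are known to make it as well. LFABP encodes the liver fatty acid-binding protein (FABP1 in RefSeq), a small cytosolic protein that carries fatty acids through the cell. MOGAT1 encodes a monoacylglycerol acyltransferase of the endoplasmic reticulum, which joins a fatty acid to monoacylglycerol and so opens one route back to triglyceride. An activity of this kind is known from the liver of suckling rats.

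All 3 genes were lower in mature livers. LPL, which acts first, was listed at 0.968 FPKM in mature livers and 25.5 FPKM in immature livers. The mature level was 3.79% of the immature one, a difference of -3.75 on the log2 scale. LFABP, the binding protein within the cell, was listed at 5.09 FPKM in mature livers and 2119 FPKM in immature livers. Its mature level was 0.240% of the immature one, and its difference was -8.44. MOGAT1, which acts on the fatty acids once they are inside, was listed at 0.456 FPKM in mature livers and 9.95 FPKM in immature livers. Here the mature level was 4.59% of the immature one, with a difference of -2.91. The order of the levels was LFABP, LPL and MOGAT1 in both groups, and whether neighbours in this order differ beyond the spread of the livers cannot be said from group values.

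**Figure D1:**
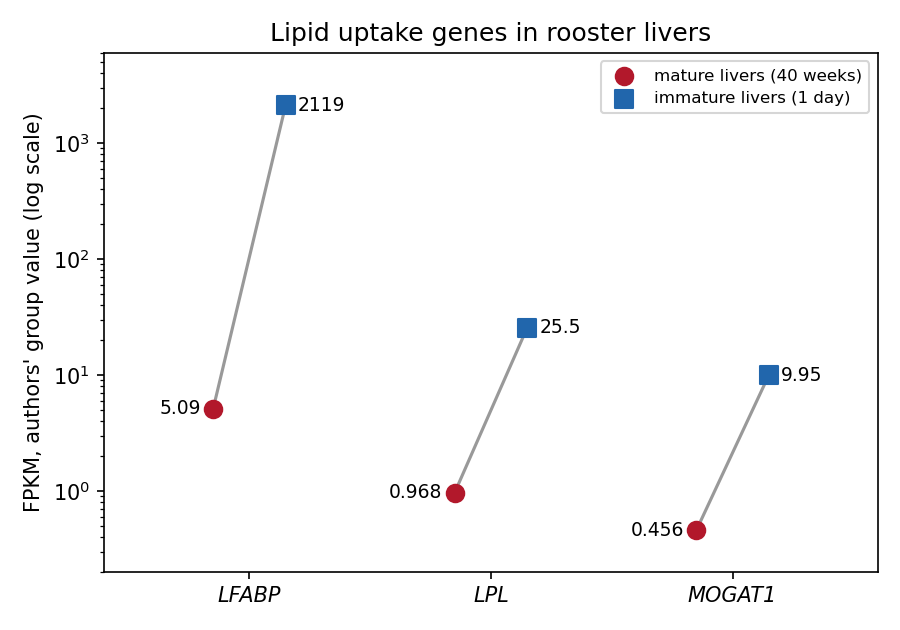
FPKM of LFABP, LPL and MOGAT1 on a log axis, with the authors' value for mature livers at 40 weeks as red circles and for immature livers at 1 day as blue squares; no error can be drawn because each group has 1 value. Every gene is lower in mature livers, and the steepest line is that of LFABP, with 5.09 FPKM in mature livers and 2119 FPKM in immature livers.

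A difference under -1 was held by 441 of the 1480 listed mRNAs, which is 29.8%, and 45.1% were lower in mature livers by any amount. Since the members were chosen with these values in view, their count of 3 of 3 is not read against that share. Differences over 1 were held by 532 mRNAs (35.9%), and 54.9% were higher by any amount. The median difference of the table was 0.64. With the differences centred on this median, 222 mRNAs were past 1 and 668 past -1. Because only called mRNAs are listed, the median depends on how many were higher or lower and measures no offset between the groups. LFABP, LPL and MOGAT1 moved to -9.09, -4.40 and -3.55, since subtracting a positive median can only lower a negative difference.

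LFABP stood apart from every other listed mRNA. Its difference was the most negative of the table, the next being -4.65 for GATM, an enzyme of creatine synthesis. LPL took rank 4 from the most negative end and MOGAT1 rank 21. On the plain ratio of FPKM, with no pseudocount, LFABP had the lowest value of all mRNAs above 0 in both groups, while 5 others were listed at 0 in mature livers. In immature livers LFABP ranked 11 of 1480 by FPKM, or 7 once 11 small nuclear and nucleolar RNAs of the mRNA table were left out. In mature livers it ranked 634. Its FPKM was 1.37 times the median of the listed mRNAs in mature livers and 652 times that median in immature livers. There were 14 mRNAs at 1000 FPKM or more in immature livers, and 7 of them had a difference under -1. Among those 7 the difference of LFABP was followed by -3.28 for AHSG and -2.67 for PPDPF. LFABP held 0.00189% of the summed FPKM of the listed mRNAs in mature livers and 1.71% in immature livers.

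LPL and MOGAT1 sat much closer together. LPL ranked 1192 by FPKM in mature livers and 237 in immature livers, and MOGAT1 ranked 1342 in mature livers and 413 in immature livers. In mature livers both lay below the median of the listed mRNAs (3.71 FPKM), at 0.261 times it for LPL and 0.123 times it for MOGAT1. In immature livers both lay above the median of 3.25 FPKM, at 7.86 times it for LPL and 3.06 times it for MOGAT1. The ratio of LPL to MOGAT1 was 2.12 in mature livers and 2.57 in immature livers. The ratio of LFABP to LPL, by contrast, was 5.26 in mature livers and 83.0 in immature livers.

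For each gene the 3 mRNAs with a symbol nearest to it were taken on the plane of the group levels, both as log2(FPKM + 1); the measure is the straight-line distance over these 2 group values. LFABP had no near neighbour. The closest was GATM at a distance of 3.45, with 6.85 FPKM in mature livers and 196 FPKM in immature livers, and then FETUB, a plasma protein of the fetuin family, at 3.98, and PTGDS, a lipocalin that makes prostaglandin D, at 4.27. Around LPL, 11 mRNAs lay within a distance of 1. The nearest were PLK1, a mitotic kinase, at 0.27 (0.869 FPKM in mature livers and 21.2 FPKM in immature livers), CDC20, an activator of the anaphase-promoting complex, at 0.37, and TK1, the cytosolic thymidine kinase, at 0.47. Around MOGAT1, 48 mRNAs lay within the same distance, led by INHBA, a chain of activin, at 0.18 (0.419 FPKM in mature livers and 8.70 FPKM in immature livers). COL18A1, a basement membrane collagen, followed at 0.20 and CKAP2, a spindle protein, at 0.24. With only 2 values behind each position, nearness shows a like level and a like difference and nothing more.

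**Figure D2:**
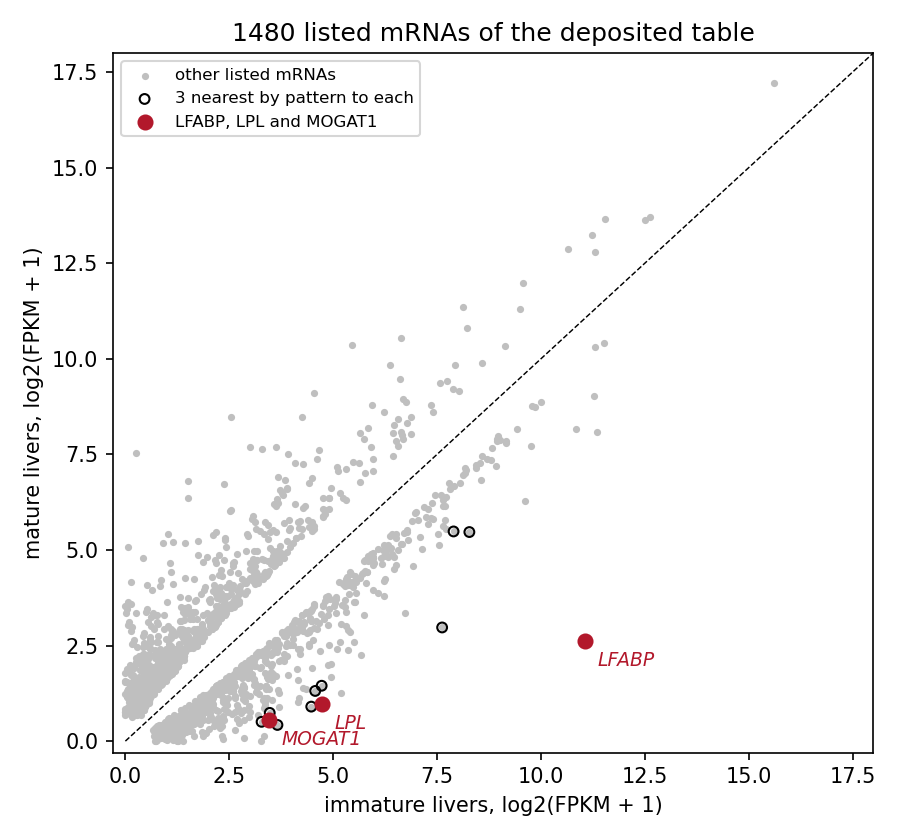
Levels of the 1480 listed mRNAs as log2(FPKM + 1), immature livers on the horizontal and mature livers on the vertical axis; each grey point is an mRNA, red points are LFABP, LPL and MOGAT1, open circles are the 3 mRNAs nearest to each, and the dashed line marks equal levels. The band without points along the line comes from the authors' selection, and LFABP lies alone at 11.05 in immature livers and 2.61 in mature livers, while LPL and MOGAT1 lie at the edge of a dense cloud.

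The other genes of fat entry were taken from 7 lists of genes with lipid functions, of which 30 distinct genes were listed. Of these, 12 had a difference under -1 and 13 a difference over 1, beside 29.8% and 35.9% of all listed mRNAs. Their median difference was 0.83, beside 0.64 for all listed mRNAs. Only 7 of the 30 genes of fatty acid binding and uptake were listed, 3 of them lower and 4 higher, with a median of 1.12. ACSL3, which activates long-chain fatty acids with coenzyme A, had 1.22 FPKM in mature livers and 6.38 FPKM in immature livers (-1.73). ACSBG2, another acyl-CoA synthetase, had 16.5 FPKM in mature livers and 6.32 FPKM in immature livers (1.25).

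The cytosolic relatives of LFABP were listed at low levels in both groups and mostly on the other side. FABP7, the brain-type protein, had 6.57 FPKM in mature livers and 15.3 FPKM in immature livers (-1.11). FABP5, first known from skin, had 11.5 FPKM in mature livers and 3.09 FPKM in immature livers (1.62). FABP4, the adipocyte type, had 2.91 FPKM in mature livers and 0.785 FPKM in immature livers (1.13), and FABP3, the heart type, had 2.72 FPKM in mature livers and 0.712 FPKM in immature livers (1.12). LFABP thus made up 17.7% of the summed FPKM of these 5 proteins in mature livers and 99.1% in immature livers. The 4 relatives summed to 23.7 FPKM in mature livers and 19.9 FPKM in immature livers, so that without LFABP the sum was higher in mature livers. FABP5 and FABP7 were listed above LFABP in mature livers. Ex-FABP, named a fatty acid-binding protein but a secreted lipocalin, had 64.2 FPKM in mature livers and 4.72 FPKM in immature livers (3.51); it was added after its value had been seen.

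Among lipases and their regulators 4 of 20 genes were listed. LIPG, the endothelial lipase, which belongs to the same family as LPL and acts mainly on phospholipids of high-density lipoprotein, had 10.03 FPKM in mature livers and 0.432 FPKM in immature livers (2.95). LIPA, the lysosomal lipase that splits cholesteryl esters and triglycerides of lipoproteins taken up whole, had 79.0 FPKM in mature livers and 11.5 FPKM in immature livers (2.68). The ratio of LIPG to LPL was 10.4 in mature livers and 0.0169 in immature livers, and that of LIPA to LPL was 81.6 in mature livers and 0.449 in immature livers. LPL was therefore the highest of these 3 lipases in immature livers and the lowest in mature livers. ANGPTL4, a secreted inhibitor of LPL, had 2.07 FPKM in mature livers and 4.92 FPKM in immature livers, and its difference of -0.95 was not past -1. The word lipase stands in the description of 9 listed mRNAs, phospholipases and a phospholipase-like protein included. LPL was the only one of the 9 that was lower by any amount, while 8 were higher, 6 of them past 1. Of all listed mRNAs 54.9% were higher by any amount and 35.9% past 1. The description search was added after the data had been seen, and LPL was chosen with its value known, so nothing is read from this count.

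Of 31 genes of acylglycerol synthesis 3 were listed, and AGPAT2 and Lpin1, the ones beside MOGAT1, differed in direction. Each is a single gene, so no direction of a whole step is read from it. AGPAT2, which makes phosphatidic acid on the glycerol phosphate route, had 4.82 FPKM in mature livers and 20.3 FPKM in immature livers (-1.87). Lpin1, the phosphatase that turns phosphatidic acid into diacylglycerol, had 55.5 FPKM in mature livers and 7.26 FPKM in immature livers (2.77). MOGAT1 reaches diacylglycerol without passing through either step. Among genes of lipid droplets and lipolysis only ABHD5 was listed of 26, an activator of adipose triglyceride lipase, with 28.1 FPKM in mature livers and 3.74 FPKM in immature livers (2.62). A gene described as a perilipin, a coat protein of lipid droplets, had no symbol (ENSGALG00000021972) and was picked after its value had been seen; it had 13.6 FPKM in mature livers and 66.6 FPKM in immature livers (-2.21).

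Lipoprotein receptors, apolipoproteins and sterol carriers had 7 of 35 genes listed, 2 lower and 1 higher past the threshold. ABCG8, one half-transporter of the pair that exports sterols into bile, had 0.0667 FPKM in mature livers and 6.25 FPKM in immature livers (-2.76). LCAT, the plasma enzyme that esterifies cholesterol, had 9.21 FPKM in mature livers and 32.4 FPKM in immature livers (-1.71). The apolipoprotein gene apoAIV had 2544 FPKM in mature livers and 723 FPKM in immature livers (1.81). ABCA1 and ABCG1, which export cholesterol from cells, were higher in mature livers by 0.96 and 0.78. LRP6, described as LDL receptor-related, was higher by 0.88, and no role in lipoprotein uptake is read from its name. Of the 30 listed genes of the 7 lists, 1 changed sign with centred differences.

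**Figure D3:**
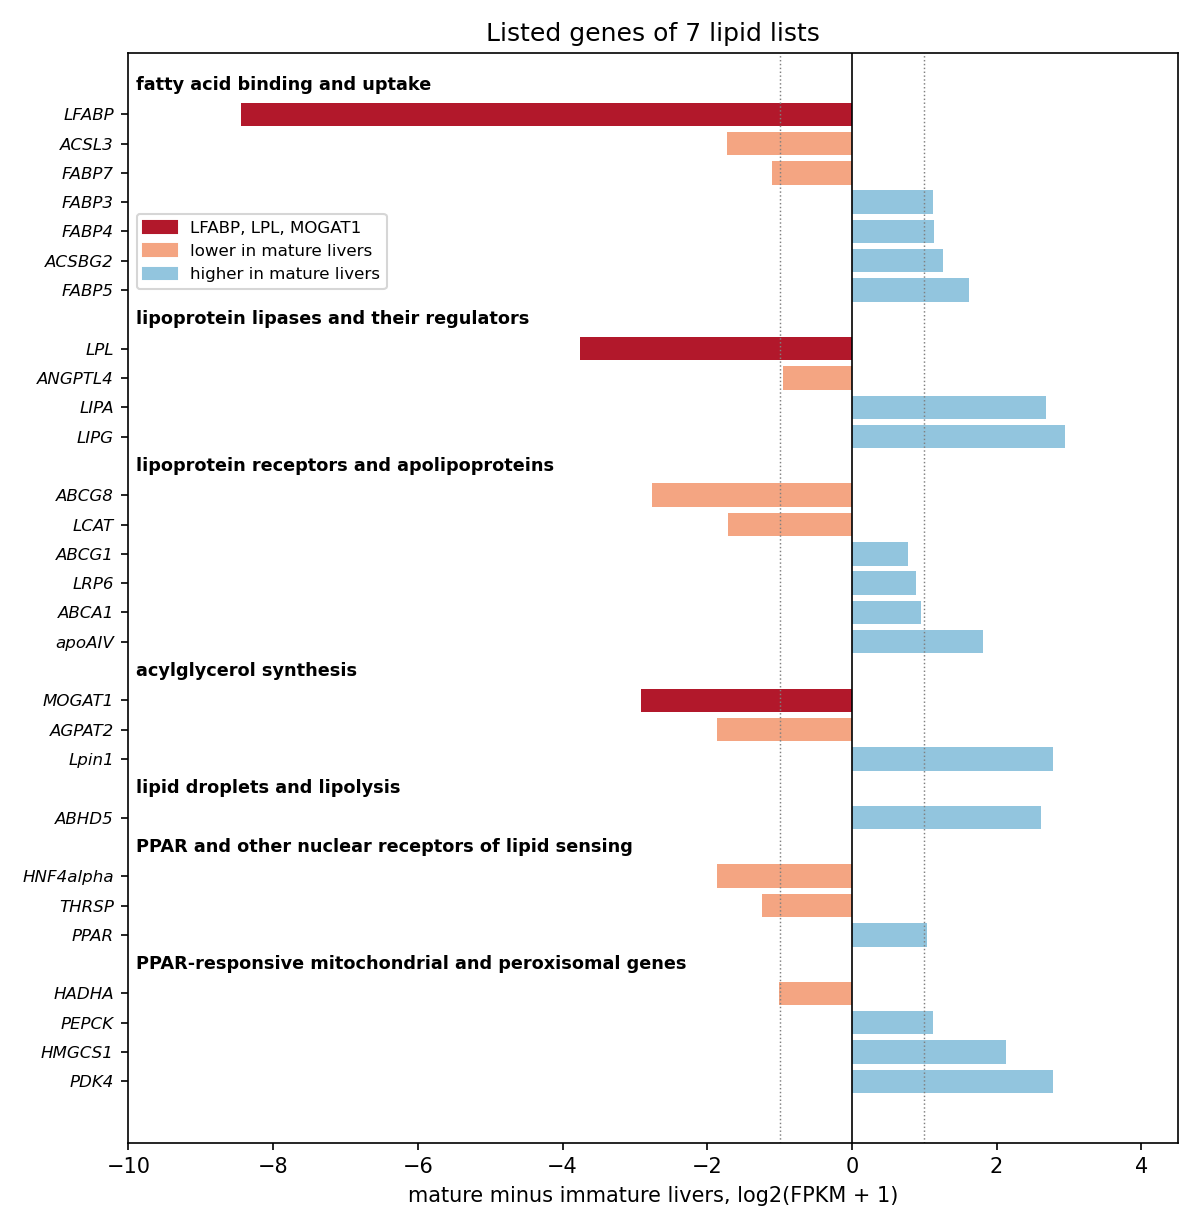
Differences of 28 of the 30 listed genes of 7 lipid lists, as mature minus immature livers on log2(FPKM + 1); dark red bars are LFABP, LPL and MOGAT1, orange bars other genes lower in mature livers, blue bars genes higher in mature livers, and dotted lines mark -1 and 1. Bars run both ways within most lists, from -8.44 for LFABP to 2.95 for LIPG.

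Fatty acids act on nuclear receptors, of which PPAR alpha and gamma and HNF4 alpha are known regulators of lipid genes in liver and fat. Of 30 genes of lipid-sensing receptors and their partners 3 were listed. HNF4alpha had 5.24 FPKM in mature livers and 21.8 FPKM in immature livers (-1.87), and THRSP, a thyroid hormone-responsive gene of fat synthesis, had 1.53 FPKM in mature livers and 4.96 FPKM in immature livers (-1.24). PPAR, described in the table as the gamma receptor, had 26.1 FPKM in mature livers and 12.2 FPKM in immature livers (1.04). Of 25 genes in a list of PPAR-responsive genes 5 were listed, 2 lower and 3 higher. The 3 higher ones include PEPCK (1.12), described as cytosolic, and HMGCS1 (2.12), described as cytoplasmic. HADHA, an enzyme of fatty acid oxidation, had 61.0 FPKM in mature livers and 124 FPKM in immature livers (-1.01). PDK4, a kinase that holds back pyruvate oxidation, had 165 FPKM in mature livers and 23.3 FPKM in immature livers (2.77).

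What the genes share in annotation was little. LFABP carried 18 gene ontology terms, LPL 27 and MOGAT1 6, and no term was common to all. LFABP and LPL shared 2 broad terms (protein binding and extracellular exosome), and LPL and MOGAT1 shared 1 (membrane). LFABP and LPL also carried the KEGG term of PPAR signaling, as did 12 listed mRNAs in all. Of these 12, 3 had a difference under -1 and 8 over 1, with a median of 1.13. Among all listed mRNAs 29.8% were under -1 and 35.9% over 1. SCD, the desaturase that makes monounsaturated fatty acids, had 10.01 FPKM in mature livers and 0.0341 FPKM in immature livers (3.41) and was among the 8. FADS2, a desaturase of polyunsaturated fatty acids, had 24.7 FPKM in mature livers and 5.07 FPKM in immature livers (2.08). The KEGG term of glycerolipid metabolism, carried by LPL but not by MOGAT1, was held by 5 listed mRNAs, 2 lower and 3 higher. Counts by gene ontology cover the 1364 mRNAs whose terms could be used here. The term lipid metabolic process was carried by 25 of them, 7 lower and 15 higher past the threshold, and LPL was the most negative of the 25. Lipoprotein lipase activity was held by LPL and LIPG, on opposite sides, and remodeling of very-low-density lipoprotein by LPL and LCAT, both lower. The acyltransferase activity of MOGAT1 on monoacylglycerol was held by no other listed mRNA.

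The 3 genes lie on different chromosomes, in coordinates that carry no build of their own, the methods of the study naming Galgal5 for the mapping. LFABP (ENSGALG00000015937, transcript ENSGALT00000025686) spans 85503586 to 85507317 on chromosome 4, LPL (ENSGALG00000015425, ENSGALT00000037774) spans 54351090 to 54368393 on chromosome Z, and MOGAT1 (ENSGALG00000005217, ENSGALT00000040843) spans 7508182 to 7530819 on chromosome 9. These spans are the loci listed for the assembled transcripts, and the Ensembl transcript named is the nearest annotated one given for each. MOGAT1 alone had listed mRNAs within 100 kb, a property that 53.3% of the listed mRNAs have. FARSB, a subunit of phenylalanyl-tRNA synthetase, ended 140 bp before MOGAT1 and had 9.62 FPKM in mature livers and 20.8 FPKM in immature livers (-1.04). ACSL3, the acyl-CoA synthetase named above, began 18.7 kb beyond MOGAT1. In the RefSeq annotation of GRCg7b, FARSB and ACSL3 are likewise the protein-coding neighbours of MOGAT1. All 3 of these adjacent genes were lower in mature livers, as were 45.1% of the listed mRNAs by any amount. MOGAT1 was chosen with its value known and FARSB was barely past -1, so nothing is read from this count.

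LFABP and LPL stood without listed neighbours of that kind. The nearest listed mRNA to LFABP was CD8A, a T cell co-receptor chain, 147 kb away, with 2.68 FPKM in mature livers and 0.0309 FPKM in immature livers (1.84). It was 1 of 5 listed mRNAs within 500 kb of LFABP. Of the others, RNF103 (0.90) was higher, while SUCLG1 (-1.05), IMMT (-1.05) and POLR1A (-0.87) were lower. In RefSeq the genes flanking LFABP are SMYD1 and THNSL2, neither of which is listed. The nearest listed mRNA to LPL was ABCA1, the cholesterol exporter, 169 kb away, with 20.1 FPKM in mature livers and 9.85 FPKM in immature livers (0.96). No listed lncRNA lay within 100 kb of any of the 3 genes, while 13.8% of the listed mRNAs had one. Within 500 kb there was 1, the intergenic TCONS_00063194 at 236 kb from MOGAT1, with 0.292 FPKM in mature livers and 1.23 FPKM in immature livers (-0.78).

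**Figure D4:**
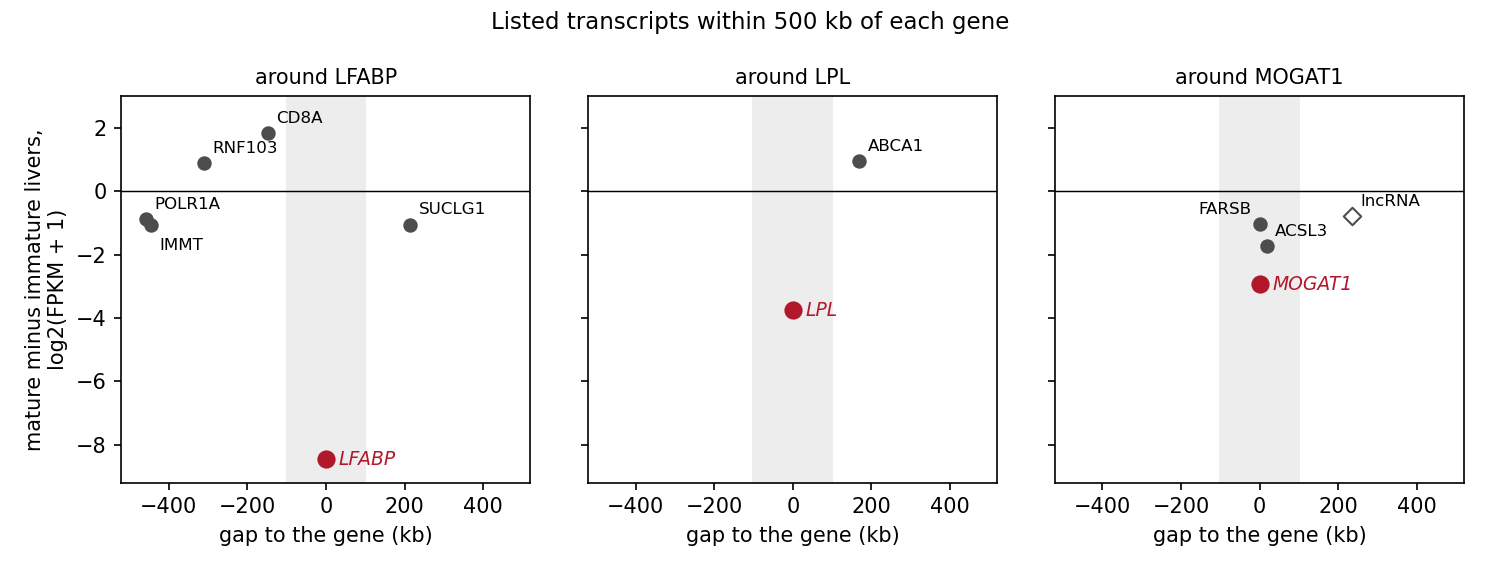
Listed transcripts within 500 kb of LFABP, LPL and MOGAT1, by the gap to the gene in kb (negative towards lower coordinates) and by the difference of mature minus immature livers on log2(FPKM + 1); red points are the 3 genes, filled grey points other mRNAs, the open diamond a lncRNA, and the shaded band spans 100 kb on either side. The band holds other transcripts only around MOGAT1, namely FARSB at -1.04 and ACSL3 at -1.73.

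In whole liver, fewer cells of a type and less RNA per cell cannot be told apart, and markers of several cell types differed in level between the groups beside the 3 genes. For these markers higher and lower mean by any amount, as 54.9% and 45.1% of all listed mRNAs were. Of 18 hepatocyte genes 6 were listed, with a summed level of 9766 FPKM in mature livers and 6119 FPKM in immature livers. Most of the mature sum was HPX, the heme-binding plasma protein hemopexin, and without it the other 5 summed to 2622 FPKM in mature livers and 3597 FPKM in immature livers. AHSG, the plasma protein fetuin-A, made up most of that last immature sum. It was lower (269 FPKM in mature livers and 2625 FPKM in immature livers), as was HNF4alpha. The other 4 of the 6, HPX, RBP4, TAT and CP, were higher, so the direction of the sum rests on single genes. Of 11 adipocyte genes 3 were listed, all higher, at a sum of 938 FPKM in mature livers and 258 FPKM in immature livers, nearly all of it CFD. Of 14 muscle genes 2 were listed, on opposite sides. TNNC1, a troponin, had 30.1 FPKM in mature livers and 7.48 FPKM in immature livers, while a cardiac myosin heavy chain had 0.264 FPKM in mature livers and 1.47 FPKM in immature livers. Of 11 enterocyte genes 2 were listed, both higher, at a sum of 2545 FPKM in mature livers and 724 FPKM in immature livers. Nearly all of it was apoAIV, and CDH17 had 1.70 FPKM in mature livers and 0.559 FPKM in immature livers (0.79, not past 1). For 14 macrophage genes 9 mRNAs were listed, all higher, at a sum of 1660 FPKM in mature livers and 172 FPKM in immature livers. Among them, 2 were transcripts of 1 gene, the class II invariant chain Ii, at 548 and 205 FPKM in mature livers. Of 11 genes of stellate cells or fibroblasts 2 were listed, at a sum of 97.7 FPKM in mature livers and 65.1 FPKM in immature livers. They too lay on opposite sides, COL1A2, a collagen, with 8.82 FPKM in mature livers and 52.5 FPKM in immature livers, and RGS5, a regulator of G-protein signaling, with 88.8 FPKM in mature livers and 12.6 FPKM in immature livers. Of 13 erythroid genes only HBE1 was listed, with 0.0909 FPKM in mature livers and 3.99 FPKM in immature livers. Of the endothelial genes 3 of 13 were listed, at a sum of 59.6 FPKM in mature livers and 31.4 FPKM in immature livers. These also lay on opposite sides, with LYVE1 (1.11) and VWF (1.20) higher. STAB2 was lower, with 3.61 FPKM in mature livers and 7.72 FPKM in immature livers (-0.92). No listed marker of these lists was at 0 in either group, and their part in the levels of LFABP, LPL and MOGAT1 was not tested.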

How the data were processed

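Total RNA of 6 liver libraries was sequenced after depletion of ribosomal RNA. Cufflinks, Cuffdiff, DESeq, TopHat, FastQC and Bowtie2 2.0.6 appear in the processing notes of the submitters, with no role given. The study's methods give mapping to Galgal5 by TopHat, FPKM from StringTie and selection by DESeq, and which of StringTie and Cufflinks made the deposited FPKM is not settled by these sources. The identifiers differ as well. Deposited transcripts and genes are labelled TCONS and XLOC, whereas the lncRNAs printed in the study are labelled MSTRG. The deposited FPKM therefore cannot be taken as the StringTie values of the study, and their origin was not tested. The deposited tables list 1480 mRNAs and 622 lncRNAs with the authors' FPKM, 1 value per group, so that replicate spread is not known. Depth is given only by the study, as mapped reads per library, and was not used here. Columns with the authors' fold changes and p-values hold the study's own comparison and were not used.

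Differences of log2(FPKM + 1), ranks, distances and list counts were computed with Python 3.11.15, pandas 2.3.3 and NumPy 2.4.6. Differences, counts past the threshold, distances and gaps were recovered from constructed values without noise, which checks the code only. Ranks and list counts were not checked in this way. No test between groups was possible. The genes to name were the members, the listed genes of 7 lipid lists, the 3 nearest mRNAs by pattern and the nearest transcripts by position; some, as stated, were added after their values were seen. Members and lists were chosen with earlier results of these data known. List genes were matched by symbol, RefSeq synonym or RefSeq protein, and 1293 of 1480 mRNAs matched a RefSeq gene. Alternatives were other pseudocounts, median-centred differences, a minimum mean of 1 FPKM, a stricter difference of 2, exact symbols and a window of 500 kb. Values of 2 list genes are not reported here. Gene ontology terms of 116 mRNAs and all sequences were not used here.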

Additional observations from a re-analysis of the deposited data

How the results depend on the processing

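LFABP, LPL and MOGAT1 were lower in mature livers under every pseudocount tried and with differences centred on the table's median. These settings could not have turned that direction, so they are no check of it. A pseudocount added to both groups keeps the sign, and centring subtracted a positive median. The ratio behind the difference moved by over 1.5 times, a shift of over 0.585 on the log2 scale, in the following cases. LPL was at -4.59 with a pseudocount of 0.1 FPKM and -4.72 with none. MOGAT1 was at -4.18 and -4.45 with the same settings. Median-centred differences gave -9.09 for LFABP, -4.40 for LPL and -3.55 for MOGAT1. With no pseudocount all listed mRNAs were past 1 or -1, 812 higher and 668 lower in mature livers, as the authors' selection implies. Median centring gave 222 higher and 668 lower mRNAs, and a difference past 2 gave 140 higher and 79 lower. Of 56 counts of list genes under these settings and under exact symbols (added after the data were seen), 45 stayed within 1.5 times and 11 did not. With median-centred differences none of the 4 higher genes of fatty acid binding and uptake was still past 1. Because only called mRNAs are listed, the median depends on how many were higher or lower. It measures no offset between the groups, so the centred counts are no check of these genes. Of the 3 mRNAs nearest to LPL by pattern, 1 was shared when no pseudocount was used, a setting also added later. Neither leaving out a library nor a test was possible because the tables hold no values per library. No paired analysis was possible because each group has 1 value, and the birds of the groups are different animals. FPKM without counts set no limit of detection, so levels under 1 FPKM, such as those of LPL and MOGAT1 in mature livers, have unknown precision.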
